A study of Mus musculus with 4 samples.

Results

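The 10 genes described here encode proteins of the presynaptic active zone, the site of the nerve terminal membrane where synaptic vesicles dock, are primed and fuse. They were taken by name, Rims1, Rims2, Bsn, Pclo, Unc13a, Unc13b, Unc13c, Erc1, Erc2 and Ppfia2, and all 10 were found among the 21887 protein-coding genes of the mm10 RefSeq gene table. A peak was given to a gene if it lay in the gene body or within 3 kb of either end. The peaks came from chromatin immunoprecipitation sequencing (ChIP-seq) of hippocampus of adult C57BL/6N mice. There were 3 libraries made with an antibody against TIMELESS, a protein of the replication fork that is also studied as a clock protein, and 1 input library of the same tissue and strain, made from chromatin that was not immunoprecipitated. All 4 came from tissue without a stated treatment, and since no label ties the TIMELESS libraries to different animals, their spread may be of technical origin.

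The title of the study ties TIMELESS to synaptic plasticity through cAMP, and the question taken up here is where its peaks lie in genes of transmitter release. RIM proteins (Rims1, Rims2) form the hub of the active zone. They bind the vesicle GTPase Rab3, recruit calcium channels and activate Munc13 proteins. Munc13 proteins (Unc13a, Unc13b, Unc13c) prime vesicles by opening syntaxin for SNARE assembly. Bassoon (Bsn) and Piccolo (Pclo) are giant scaffolds that guide vesicles to the membrane, ELKS proteins (Erc1, Erc2) tie RIM to the scaffold, and liprin-α2 (Ppfia2) recruits further components. In the hippocampus, RIM1 is required for the presynaptic form of long-term potentiation at mossy fibre synapses.

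The peak caller kept between 8425679 and 30454118 tags in the TIMELESS libraries and 14669253 in the input, and called 7454, 24659 and 89043 peaks in TIMELESS replicates 1, 2 and 3, against 306 input peaks. The library labelled TIMELESS replicate 3, called replicate 3 from here on, has a header that names its alignment as an input. The leading counts are therefore also given without it. The pileup of a peak is the deposited fragment coverage at its summit in raw units, and the scaled pileup is the same value per 10000000 tags kept in that library. The fold is the caller's ratio of that pileup to the background of the same library. A shared region is a site where peaks of at least 2 TIMELESS libraries overlap and no input peak lies. The smallest p that an exact permutation of 3 libraries against 1 allows is 0.25, so the values are given without a test.

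Of the 10 active zone genes, 9 held a shared region, and Erc1 did not. The same was true of 9.92% of all protein-coding genes, of 44.8% of those of at least 100 kb and of 66.2% of those of at least 200 kb. The active zone genes are long, from 47.6 kb (Unc13a) to 856.3 kb (Erc2), and 8 of them span at least 200 kb. Of these 8 genes, 7 held a shared region, which is to be read against the 66.2%. The other members, Bsn and Unc13a, are under 100 kb and each held one, as did 5.57% of the coding genes under 100 kb. A region of all 3 libraries lay in 3 members, Rims1, Bsn and Unc13b, against 4.18% of all coding genes. Among the members of at least 200 kb, 2 of 8 held one, against 34.4% of coding genes of that length and 21.2% of those of at least 100 kb. Of Bsn and Unc13a, the members under 100 kb, Bsn held one, against 2.06% of coding genes under 100 kb. These shares rise with gene length, and those for genes under 100 kb were not matched to the lengths of Bsn and Unc13a.

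The counts rested on replicates 2 and 3. Without replicate 3, shared regions remained in 5 of the 10 genes, Rims1, Rims2, Bsn, Unc13b and Unc13c, against 5.54% of coding genes. Without replicate 2, they lay in 3, Rims1, Bsn and Unc13b, against 4.79%. When each library was reduced to its strongest peaks, as many as replicate 1 has, 4 genes held one (Rims1, Rims2, Bsn and Unc13b), against 4.44%. Under these settings the shares were taken over all coding genes and not by length, while 8 of the 10 genes span at least 200 kb. The gaps to these shares are therefore not read as a trait of the active zone genes. Rims1, Bsn and Unc13b held a shared region under each of the 11 alternatives run. The regions of these 3 genes each hold a peak of replicate 3, the library whose header names an input. Shared regions without a peak of replicate 3 lay only in Rims2 and Unc13c. No alternative dropped regions over its peaks, as was done for the input, so the bearing of that header on these sites was not tested.

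The 10 genes with their flanks held 13 shared regions over 3.90 Mb, or 3.33 per Mb, against 3.71 per Mb in coding genes of at least 200 kb and 2.93 per Mb in all coding genes. Of the 13, 3 had peaks of all 3 libraries, 7 had peaks of replicates 2 and 3, and 3 had peaks of replicates 1 and 2. None had peaks of replicates 1 and 3 alone. Without replicate 3 there were 6 shared regions, and without replicate 2 there were 3. Of the members' regions 23.1% thus held all 3 libraries, against 29.1% of the 11957 shared regions of the series, of which 53.9% held replicates 2 and 3, 10.7% replicates 1 and 2, and 6.28% replicates 1 and 3. The regions were 377 to 989 bp wide, with a median of 501 bp. The highest points of the peaks that formed a region lay 8 to 412 bp apart, with a median of 114 bp.

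**Figure D1:**
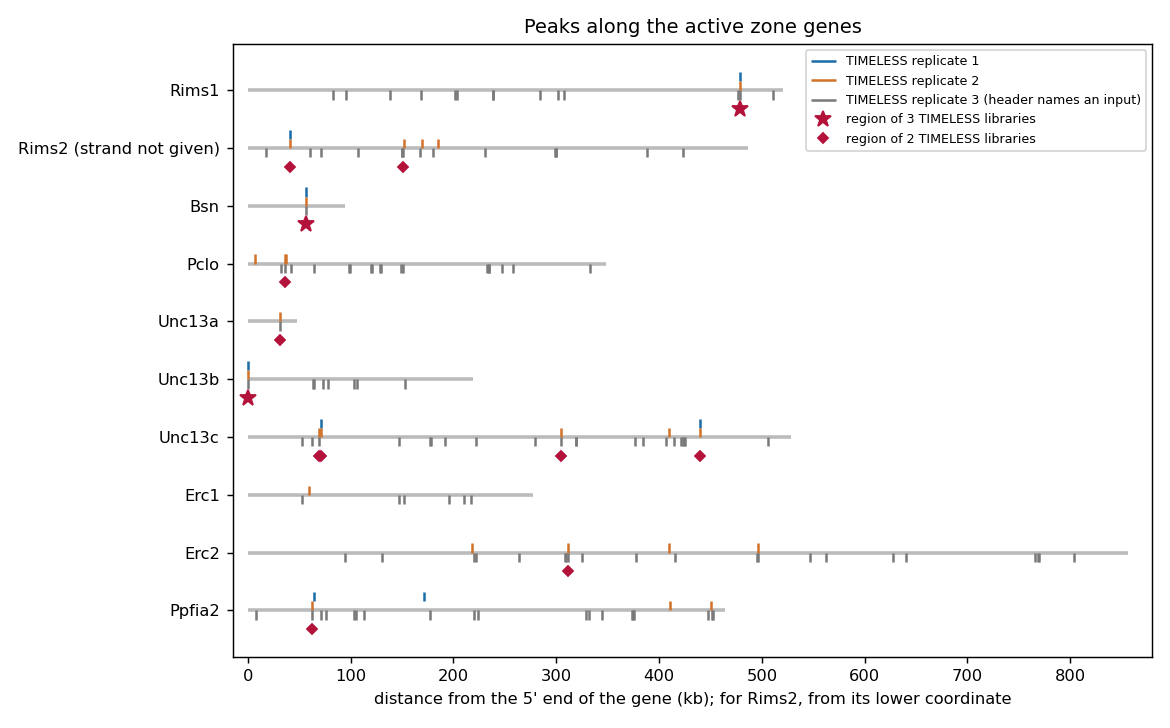
Peaks of the 3 TIMELESS libraries along each active zone gene. Each grey line is a gene drawn to scale from its 5′ end (Rims2, whose strand is not in the tables, from its lower coordinate), the x axis is the distance in kb, ticks are peaks, and red stars and diamonds mark regions of 3 and of 2 libraries. The 3 stars lie in Rims1, Bsn and Unc13b, and Erc1 has no mark. No input peak lay in any of the genes.

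Along the genes the shared regions took no common place. In the 9 genes whose strand is in the RefSeq promoter table, 6 of 11 regions lay nearer to the 5′ end than to the 3′ end, or 54.5%, against 50.2% of 1617 shared regions in coding genes of at least 100 kb. Their positions ran from 0.226% (Unc13b) to 92.0% (Rims1) of the gene length. That table holds 1 promoter for each of these genes, and in Unc13b and Unc13c its start lies well inside the gene. The promoters at the outer 5′ ends of these genes were not examined. No peak of any of the 4 libraries lay over the promoter in the table of these 9 genes or within 3 kb of it. The nearest TIMELESS peak was 5.10 kb away, beside Bsn. Of 21263 promoters of coding genes in the table, 0.475% had a TIMELESS peak of any library over them. Measured to the starts in the promoter table, the nearest shared region was that of Unc13b, 12.3 kb upstream of the start. The 5′ end of Unc13b in the gene table lies further upstream, and the midpoint of the region was 0.493 kb inside it.

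The promoters in that table of the 3 genes with a region of all libraries are shown because they are stretches at which these sites were not found. Each runs from 250 bases before to 50 bases after the start, from RefSeq on GRCm38.p6, 5′ to 3′ on the strand of the gene, and capitals mark the E-box CACGTG, the motif bound by the CLOCK and BMAL1 clock proteins. They lie at chr1:22806109-22806408 (minus strand, Rims1), chr9:108190334-108190633 (minus strand, Bsn) and chr4:43058703-43059002 (plus strand, Unc13b).
Rims1: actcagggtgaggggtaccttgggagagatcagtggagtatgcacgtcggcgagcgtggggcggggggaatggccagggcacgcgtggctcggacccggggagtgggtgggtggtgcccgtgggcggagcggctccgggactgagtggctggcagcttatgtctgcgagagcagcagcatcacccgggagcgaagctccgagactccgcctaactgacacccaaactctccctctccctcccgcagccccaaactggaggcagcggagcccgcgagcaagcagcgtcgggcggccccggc
Bsn: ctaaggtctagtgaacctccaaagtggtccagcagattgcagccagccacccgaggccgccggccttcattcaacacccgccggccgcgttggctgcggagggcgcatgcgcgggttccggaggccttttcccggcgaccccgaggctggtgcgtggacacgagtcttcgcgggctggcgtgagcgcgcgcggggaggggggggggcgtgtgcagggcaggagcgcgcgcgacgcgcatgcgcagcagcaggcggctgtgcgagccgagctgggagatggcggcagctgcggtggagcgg
Unc13b: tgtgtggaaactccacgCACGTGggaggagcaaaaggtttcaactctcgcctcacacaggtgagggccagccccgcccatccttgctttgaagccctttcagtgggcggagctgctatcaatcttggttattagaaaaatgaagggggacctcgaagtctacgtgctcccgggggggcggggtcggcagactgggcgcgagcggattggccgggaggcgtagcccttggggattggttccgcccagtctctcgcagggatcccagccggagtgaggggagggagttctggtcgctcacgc

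The E-box, whose letters are the same on either strand, was in the Unc13b promoter, 233 bases before the start, and in none of the other 8, against 7.84% of the 21263 coding promoters. The peaks nearest to the Unc13b promoter were 11.7, 12.0 and 11.9 kb away in replicates 1, 2 and 3, and all belonged to the region at the 5′ end of the gene. The full cAMP response element TGACGTCA, searched on both strands, was in none of the 9 promoters and in 2.23% of coding promoters. Its core TGACG, which the full element contains, was in those of Unc13a and Erc1 and in 23.6% of coding promoters. These matches describe the letters in the window and show no binding.

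Rims1, which encodes RIM1, held the strongest of these sites. Rims1 is the gene with RefSeq gene ID 116837 at chr1:22285972-22806158 on the minus strand, and the region lay inside it at chr1:22327473-22327992. Its pileup was 42, 64 and 84 in replicates 1, 2 and 3, and the scaled pileup was 49.8, 47.2 and 27.6, a mean of 41.5 ± 12.2 (SD, n = 3). Raw pileup rose with depth, while after scaling replicate 3 was the lowest. The fold was 13.5, 15.2 and 13.7, higher than that of 99.0%, 99.8% and 99.9% of the peaks of the same library. Ordered by its lowest fold in any library, the region ranked 14 of the 3476 regions of all 3 libraries. The 3 summits lay within 21 bp. The region lay 92.0% of the way from the 5′ to the 3′ end of the gene, 41.8 kb from the 3′ end and 478.4 kb from the annotated start.

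Replicates 1 and 2 had no other peak in Rims1, and replicate 3 had 13 more, none of them met by another library. The strongest of these was at chr1:22498441-22499627 with a pileup of 40 and a fold of 5.90. A further region of all 3 libraries lay just outside the 3 kb limit, 3.57 kb beyond the 3′ end at chr1:22281954-22282404. Its pileup was 17, 25 and 109 in replicates 1, 2 and 3, and the scaled pileup was 20.2, 18.4 and 35.8. In contrast to the region inside the gene, replicate 3 was the highest there after scaling. No other member had a shared region this close beyond its flanks, and no peak of any library lay in the 3 kb flanks of any member.

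Rims2, which encodes RIM2, the close relative of RIM1, had no site of all 3 libraries. The gene (ID 116838, chr15:39198286-39684372) held a region of replicates 1 and 2 at chr15:39239292-39239745 with pileups of 12 and 25, scaled pileups of 14.2 and 18.4, and folds of 5.68 and 8.06. A second region, of replicates 2 and 3, lay at chr15:39349272-39349911 with pileups of 16 and 26 and folds of 3.87 and 3.11. There the peaks of the 2 libraries shared only 189 bp and their summits lay 249 bp apart, and the region was not counted when an overlap of 50% of the shorter peak was required. The first region lay 41.2 kb and the second 151.3 kb from the lower coordinate of the gene. The peak of replicate 3 nearest to the first region was 18.9 kb away.

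Bsn, which encodes Bassoon, held a single site, and it was the only site of each TIMELESS library in the gene. The gene (ID 12217, chr9:108096022-108190419, minus strand) is 94.4 kb long, and the region lay at chr9:108133866-108134854, 56.1 kb from the 5′ end. The same interval overlaps the annotated long noncoding RNA gene 4930447F24Rik. The pileup was 40, 47 and 83 in replicates 1, 2 and 3, and the scaled pileup was 47.5, 34.6 and 27.3, a mean of 36.5 ± 10.2 (SD, n = 3). The fold was 9.19, 8.10 and 9.90, and the region ranked 161 of 3476 by its smallest fold. The site was wide, with peaks of 933, 986 and 986 bp that had 933 bp in common, against median peak widths of 355, 349 and 402 bp in these libraries.

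Pclo, which encodes Piccolo, the relative of Bassoon, differed from it in having many peaks of 1 library. The gene (ID 26875, chr5:14514906-14863465, plus strand) held 0, 3 and 18 peaks of replicates 1, 2 and 3. Its only shared region was at chr5:14550582-14551018, 35.9 kb from the 5′ end, with pileups of 16 and 38 in replicates 2 and 3 and folds of 3.61 and 3.28. Scaled to tags kept, these pileups were 11.8 and 12.5, nearly equal, and the summits lay 8 bp apart. With 50.8 peaks of replicate 3 per Mb, Pclo had the highest density of the 10 genes in that library, against 29.4 per Mb in coding genes of at least 200 kb. The strongest peak of replicate 3 alone was at chr5:14772632-14773457 with a pileup of 38 and a fold of 7.45.

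The Munc13 genes held 6 of the 13 shared regions, 4 of them in Unc13c, which is 528.7 kb long. Without replicate 2 only the region of Unc13b remained. Unc13a encodes Munc13-1, the main priming factor of excitatory hippocampal synapses. It is the shortest of the 10 genes (ID 382018, chr8:71624125-71671774, minus strand), and it held 1 region at chr8:71640144-71640764, 31.3 kb from its 5′ end. The pileup there was 19 in replicate 2 and 14 in replicate 3, and the scaled pileup was 14.0 and 4.60, with folds of 6.75 and 2.87. This was the widest gap between libraries, 3.05 times after scaling, and only 0.258% of the peaks of replicate 3 had a pileup below that of its peak here.

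Unc13b encodes Munc13-2, which is made as a brain-specific and a widely expressed form. The gene (ID 22249, chr4:43046193-43264873, plus strand) held a region of all 3 libraries at chr4:43046352-43047021. This was the only one of the 13 regions near a gene end, with its midpoint 0.493 kb inside the annotated 5′ end. Of 2133 shared regions in coding genes of at least 100 kb, 1.73% were centred within 3 kb of a gene end. The pileup was 16, 14 and 35 in replicates 1, 2 and 3, and the scaled pileup was 19.0, 10.3 and 11.5, a mean of 13.6 ± 4.71 (SD, n = 3). The fold was 6.13, 5.11 and 6.88, and the region ranked 880 of 3476. When each library was reduced to the number of peaks of replicate 1, the site remained shared but no longer held all 3 libraries.

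Unc13c encodes Munc13-3, known mainly from the cerebellum. The gene (ID 208898, chr9:73479422-74008155, minus strand) held 4 shared regions, more than any other member, each of 2 libraries. Per Mb that was 7.48, below Bsn (9.96) and Unc13a (18.6). The count was 3 with the stricter overlap or joining by summits, and 2 without replicate 1 or without replicate 3. It was 1 at fold of at least 5, and none remained without replicate 2 or with equal numbers of peaks. From the 3′ to the 5′ end the regions of the gene lay at chr9:73567843-73568223 (replicates 1 and 2), chr9:73702994-73703494 (replicates 2 and 3), chr9:73937089-73937465 (replicates 1 and 2) and chr9:73938377-73938950 (replicates 2 and 3). Pileups at the first were 13 and 14 with folds of 6.12 and 5.13, and at the second 14 and 19 with folds of 5.13 and 3.82. At the third they were 13 and 18 with folds of 4.45 and 4.08, and at the last 18 and 26 with folds of 4.01 and 2.33. The third and the last were 911 bp apart, so that replicates 1, 2 and 3 all had a peak in this stretch of the gene but no position at which all of them met. In the last region the peaks shared 90 bp and the summits lay 412 bp apart. Unc13c also held the strongest peak of replicate 3 alone in any member, at chr9:73630919-73632388, 1470 bp wide, with a pileup of 57 and a fold of 8.47.

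Erc1 and Erc2, the ELKS genes, had few sites common to the libraries. Erc1 (ID 111173, chr6:119570796-119848184, minus strand) held 0, 1 and 6 peaks of replicates 1, 2 and 3, none of which met, although it is 277.4 kb long. The peak of replicate 2 had a pileup of 9 and a fold of 3.29. Of the peaks of replicate 3, 5 lay within 70.8 kb, with pileups of 22 to 35, folds of 3.79 to 6.20 and widths of 457 to 1678 bp. In Erc1 4 of 6 peaks of replicate 3 were at least 800 bp wide, against 11.9% of all its peaks, a width chosen after the values were seen. Erc2 (ID 238988, chr14:27622275-28478537, plus strand) is the longest member and held 0, 4 and 21 peaks. Its shared region at chr14:27933000-27933463 had a pileup of 14 in replicate 2 and 57 in replicate 3, or 10.3 and 18.7 after scaling, with folds of 5.13 and 6.17.

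Ppfia2, the liprin-α2 gene (ID 327814, chr10:106469500-106933468, plus strand), held 2, 3 and 19 peaks of replicates 1, 2 and 3. The shared region at chr10:106531989-106532382 had pileups of 18 and 29 in replicates 2 and 3, or 13.3 and 9.52 after scaling, and folds of 4.73 and 2.59. The peak of replicate 1 nearest to it, at chr10:106533983-106534348, had a pileup of 10 and did not meet it. The other peak of replicate 1, at chr10:106640350-106640635, had a pileup of 12 and a fold of 5.68, the highest fold among the peaks of this gene that met no other library.

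**Figure D2:**
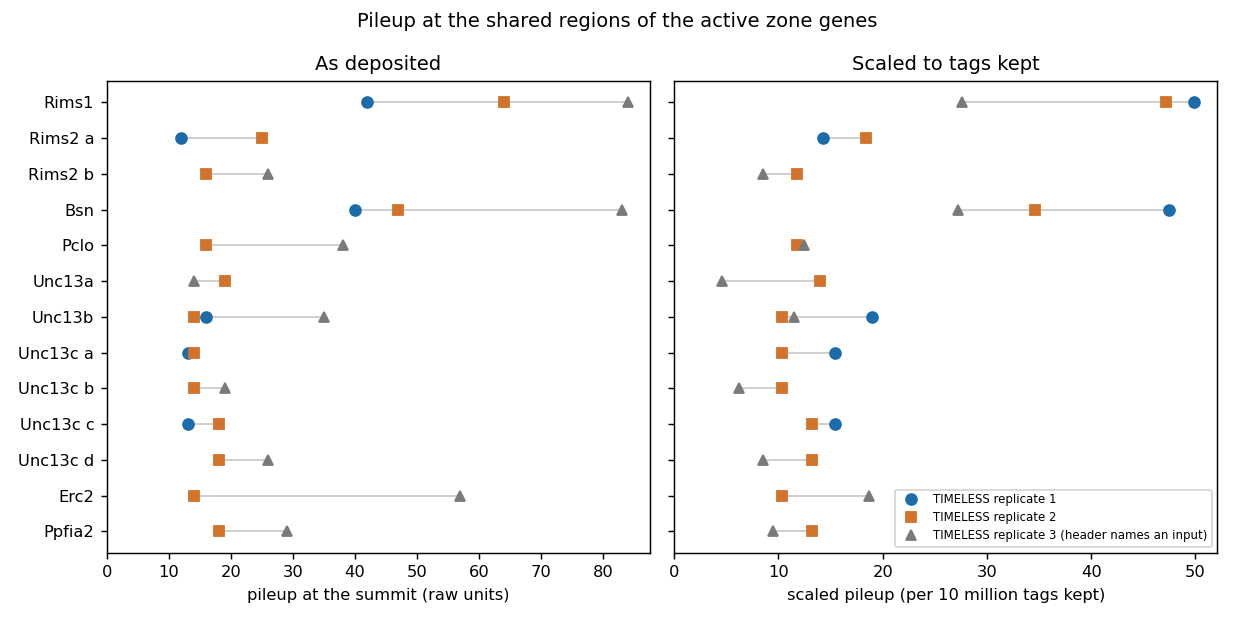
Pileup at the 13 shared regions of the active zone genes, in raw units (left) and scaled to tags kept (right). Each point is the highest peak of a TIMELESS library in the region, letters a to d number the regions of a gene by coordinate, and grey lines join the libraries. Rims1 and Bsn stand above the other regions in each library on both scales (scaled pileup of at least 27.3, against at most 19.0 elsewhere).

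After scaling, the regions fell into a high pair and a low remainder. The Rims1 and Bsn regions had scaled pileups of at least 27.3 in each library, and the other regions 4.60 to 19.0. The median over the members' regions was 17.2 in replicate 1 (6 regions), 13.3 in replicate 2 (13 regions) and 10.5 in replicate 3 (10 regions), a mean of 13.7 ± 3.37 (SD, n = 3). Over all regions of 3 libraries in the genome the medians had the same order, 17.8, 14.7 and 11.5. The lowest pileups called, 7, 8 and 12, came with 8425679, 13572739 and 30454118 tags kept. The lowest scaled pileup called thus fell in this order too, so the order is not read as a trait of the sites. The members' medians are also over sets that differ between libraries and include regions of 2 libraries. Without replicate 2 the mean over libraries was 37.4, since only the regions of Rims1, Bsn and Unc13b then remained.

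Replicate 3 had no peak in 3 of the regions although it was the deepest library. At the depth of replicate 3, the pileups of the first Rims2 region in replicates 1 and 2 would be 43.4 and 56.1, those of the first Unc13c region 47.0 and 31.4, and those of the third 47.0 and 40.4. The lowest pileup called in replicate 3 was 12. That is the lowest over the whole library and takes no account of the background at a site. At the last Unc13c region, 911 bp from the third, the background of replicate 3 was 2.50 times its genome-wide value. A pileup of 26 gave a fold of only 2.33 there. Whether replicate 3 could have called the 3 regions was not tested. Of the 6 regions of the active zone genes that held peaks of replicates 1 and 2, replicate 3 had a peak in 3, against 73.0% of the 4760 such regions of the series. Conversely, of the 114 peaks that replicate 3 alone had in these genes, 72 would fall under the lowest pileup called in replicate 1, which was 7, at the depth of that library, and 17 would fall under the lowest called in replicate 2, which was 8, at the depth of that one. Peaks met by no other library made up 91.9% of the peaks of replicate 3 in these genes and 87.8% of those in the series, 45.8% and 53.7% for replicate 2, and 25.0% and 24.0% for replicate 1.

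**Figure D3:**
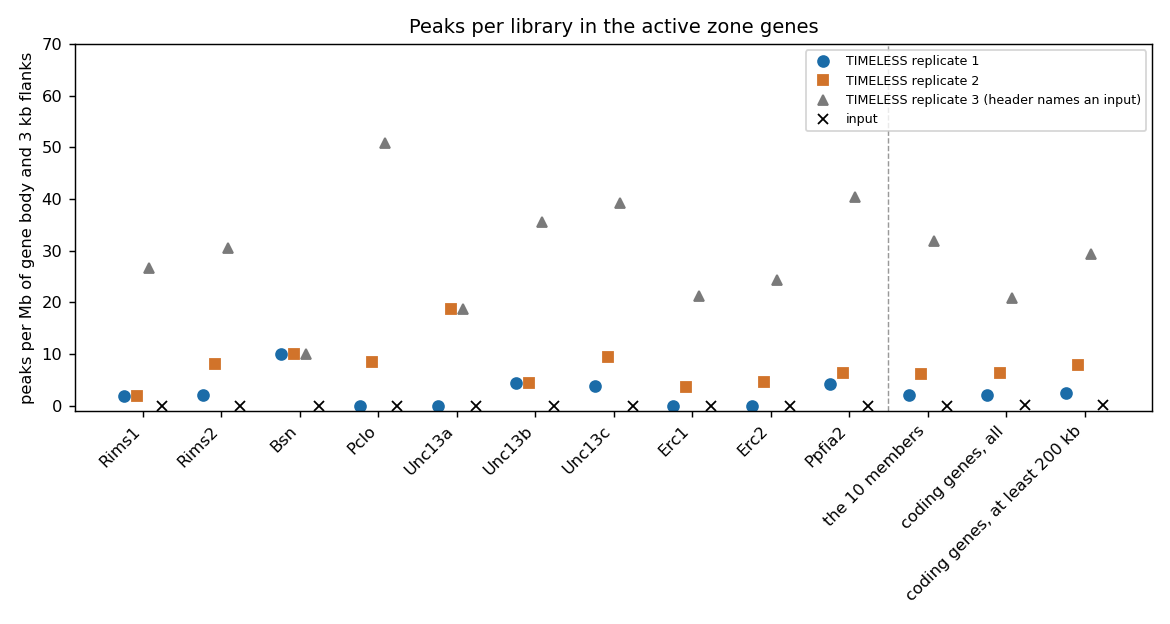
Peaks per Mb of gene body and 3 kb flanks in each active zone gene, in the 10 genes together, and in coding genes. Symbols are libraries, one value each, and the input is at 0 in each of the 10 genes. Replicate 3 reaches 50.8 peaks per Mb in Pclo, against 9.96 in Bsn. In replicates 1, 2 and 3 the 10 genes together hold 2.05, 6.15 and 31.8 peaks per Mb. All coding genes hold 2.01, 6.27 and 20.9, and coding genes of at least 200 kb hold 2.47, 7.92 and 29.4. Against that length class the 10 genes lie lower in replicates 1 and 2 and slightly higher in replicate 3.

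Counted by library, the 10 genes held 8, 24 and 124 peaks of TIMELESS replicates 1, 2 and 3, a mean of 52.0 ± 62.9 (SD, n = 3), and 0 peaks of the input. Without replicate 3 the mean was 16.0. Every member had a peak of replicates 2 and 3, and 6 of 10 had a peak of replicate 1. Among all coding genes these shares were 17.3%, 30.2% and 7.75%, and for the input, which had a peak in none of the members, 0.434%. Such shares were not computed by gene length, although 8 of the 10 members span at least 200 kb. Per Mb of gene window the counts were 2.05, 6.15 and 31.8 in the 10 genes, against 2.47, 7.92 and 29.4 in coding genes of at least 200 kb and 2.01, 6.27 and 20.9 in all coding genes. The input peak nearest to a member was 0.0365 Mb from Pclo, and the next nearest was 0.187 Mb from Unc13a.

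**Figure D4:**
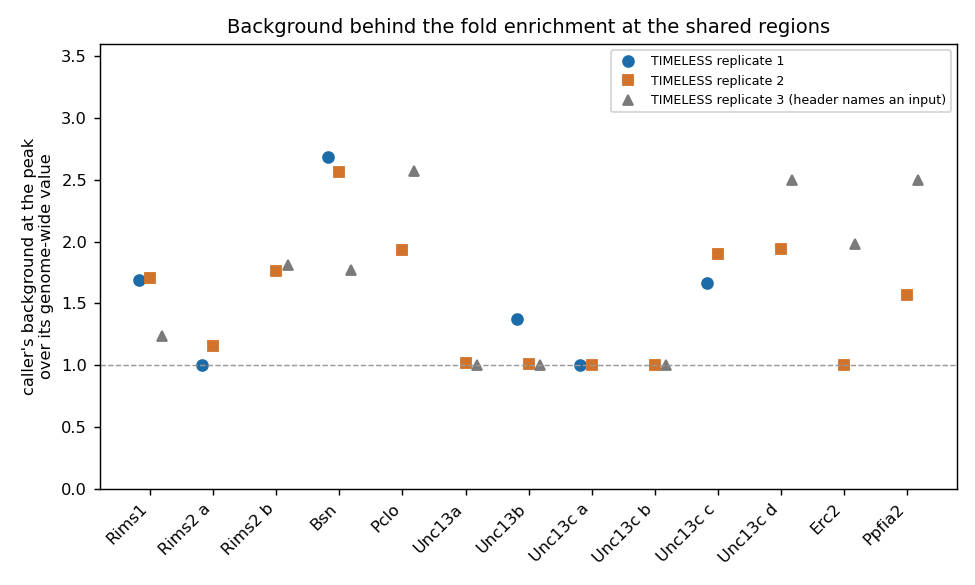
Background that the peak caller set at each peak of the 13 shared regions, as a multiple of its genome-wide background in the same library (dashed line at 1). Points are single peaks of the 3 TIMELESS libraries. The regions of Unc13a, and the first and second of Unc13c, lie at or near 1, while those of Bsn and Pclo reach 2.69 and 2.57.

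The fold of a site depends on the background that the caller set there, which was recovered from each pileup and fold. Calling used no control, so this background comes from the same library, over a range of 10 kb. The tags of the site itself were not taken out, so the value does not describe the surroundings alone. At the first and at the second region of Unc13c both libraries of the region were at the genome-wide background, so folds there compare the pileup with the genome as a whole. At Bsn the background was 2.69, 2.56 and 1.77 times the genome-wide value in replicates 1, 2 and 3, and at Pclo 1.93 and 2.57 times in replicates 2 and 3. Of the 29 peaks that formed the 13 regions, 16 had a background more than 1.5 times the genome-wide one. Over all peaks of replicates 1, 2 and 3, the median background was 1.398, 1.254 and 1.191 times the genome-wide value. The share of all peaks above 1.5 times was not computed, so the 16 are not read as a trait of these sites. Bsn and Rims1 had nearly equal pileups in replicate 1 (40 and 42) but folds of 9.19 and 13.5, with backgrounds of 2.69 and 1.69 times the genome-wide value. The part of the raised background in the difference between these folds was not tested.

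Shared regions also lay in some of the other genes of vesicle release. In a list of 41 such genes, with a median length of 64.3 kb, 9 held a shared region and 5 a region of all 3 libraries. By length, 8 of the 15 genes of at least 100 kb held one, beside 44.8% of all coding genes of that length, and 1 of the 26 shorter genes did, beside 5.57%. A region of all 3 libraries lay in 4 of the 15 longer genes, beside 21.2% of coding genes of at least 100 kb, and in 1 of the 26 shorter ones, beside 2.06%. No test of the difference between the lists was made. Cacna1b, the pore subunit of N-type calcium channels, had the highest folds, 11.1, 11.4 and 11.7 in replicates 1, 2 and 3, with pileups of 37, 42 and 69 at chr2:24634180-24634944. Rimbp2, the RIM-binding protein that links RIM to these channels, had folds of 9.14, 8.53 and 7.64 at chr5:128790453-128791205.

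The small GTPase gene Rab3b, whose product rides on vesicles and binds RIM, held 2 regions of all libraries, the stronger with folds of 6.36, 5.40 and 8.41. It was the only shorter gene of the list with one. Syt1, the calcium sensor of fast release, had folds of 5.96, 4.17 and 4.20. Cadps2, a priming factor of dense-core vesicles, held 4 shared regions, 2 of them of all libraries, and the strongest of these had folds of 4.32, 6.16 and 3.82. Its relative Cadps held 2 regions, each of 2 libraries, with folds of 4.98 and 3.06 in replicates 2 and 3 at the stronger. Cacna1a, the P/Q-type channel subunit, reached folds of 6.17 and 7.09 in replicates 1 and 2. The vesicle protein genes Sv2b and Syn2 had regions of replicates 2 and 3, with folds of 6.46 and 5.92 in Sv2b and 4.79 and 5.39 in Syn2. The other 7 genes of at least 100 kb held no shared region, among them close relatives of genes that did. They were Syn3 (450.2 kb), the scaffold gene Cask (329.7 kb), Rab3c (226.8 kb), Sv2c (173.1 kb), Stxbp5 (145.7 kb), Nsf (132.3 kb) and Syt2 (106.6 kb). Among the shorter genes, no shared region was found in Stx1a, Snap25, Vamp1 or Vamp2, which encode core SNARE proteins, and the longest of these genes, Snap25, spans 69.0 kb.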

How the data were processed

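Genome binding was measured by ChIP-seq in 3 TIMELESS libraries and 1 input library, grouped by their titles. The authors deposited 1 peak list per library. MACS 2.1.2 was run on each library alone, without a control, at a q value cutoff of 0.05 and with 1 tag kept per position, per the file headers. The submitters' processing notes name mm10, Bowtie2 2.4, SAMtools 1.14, MACS2 2.1.1 and deepTools 2.0. The deposited pileup is a signal (fragment coverage) in raw units. The deposited fold is a ratio of pileup to the background of the same library. The p and q values are deposited as −log10 values. Replicates were not pooled. Calling used no input, so places where reads gather in any chromatin of the tissue can also be called.

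Only chromosomes 1 to 19, X and Y entered, and 12 to 22 peaks per library on other sequences were left out. TIMELESS peaks that overlapped by at least 1 bp were merged into regions with Python 3.11.15, and those that met an input peak were dropped. The pileup and fold of a library in a region are those of its highest peak. The background behind a fold was taken as (pileup + 1) / fold − 1 and divided by the genome-wide value, tags kept times fragment length over the caller's genome size. In each library the lowest quotient was 1.00, and 39.0% of the peaks of replicate 3 lay within 1% of it. Genes came from RefSeq GRCm38.p6, which gives no exons here, so exonic and intronic sites were not told apart. Strands and promoters came from the RefSeq promoter table, which matched 9 of the 10 genes. The peak sequences were not analysed here.

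The 10 genes, the list of 41 other release genes and the settings were chosen with earlier results of these data known. All 10 genes and each of their shared regions are named, or the peaks of a gene without one. The length class of 200 kb was added after seeing the data. Deeper libraries allow weaker sites to be called. No test was made. Alternatives were leaving out each library, −log10 q or fold of at least 5 (input peaks included), and equal numbers of peaks. Peaks were also joined by an overlap of at least 50% of the shorter peak, or by summits within 250 bp, which needs no overlap. Other gene windows and keeping regions over input peaks were the rest. Merging was tested on simulated data.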

Additional observations from a re-analysis of the deposited data

How the results depend on the processing

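The 9 genes with a shared region became 3 to 9 when 1 TIMELESS library was left out (3 without replicate 2 and 5 without replicate 3), and the 13 shared regions became 3 to 10 (3 without replicate 2 and 6 without replicate 3). The mean number of peaks per library in the 10 genes, 52.0, ran from 16.0 to 74.0 with 1 library left out and was 31.7 at −log10 q of at least 5, 13.7 at fold of at least 5 and 9.33 with equal numbers of peaks, and the mean of the libraries' median scaled pileups, 13.7, ran from 11.5 to 37.4 with 1 library left out. The number of regions with a midpoint within 3 kb of a gene end was 1 under each alternative. At −log10 q of at least 5 there were 7 shared regions. At fold of at least 5 there were 6, and the mean of the libraries' median scaled pileups was 18.8. With equal numbers of peaks per library, 4 genes held 4 shared regions, and the mean of the libraries' median scaled pileups was 31.7. The causes were not tested beyond the smaller number of peaks or libraries that each of these keeps. The stricter overlap, joining by summits, the other windows and keeping regions over input peaks left 11 to 14 shared regions in the same 9 genes. No paired analysis was possible because the single input library shares no replicate number from the labels with the TIMELESS libraries. The lowest pileups called were 7, 8 and 12 in replicates 1, 2 and 3, and no site below them was called.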
